A study of Mus musculus with 8 samples.

Results

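Whether a blood progenitor becomes a B cell is decided largely by a small set of transcription factors and coactivators, and the levels of 7 of them were followed here: Tcf3, Ebf1, Pax5, Pou2af1, Spib, Ikzf1 and Bcl11a. They were taken by name, as regulators of the B lineage, with earlier results of these data known. The gene lists below were chosen with the same knowledge, so counts and medians set beside all genes are descriptive. The regulators are 7 of the 12393 genes that the arrays report through a probe set annotated to 1 gene symbol. Together they have 12 probe sets, 3 for Ebf1, 3 for Tcf3, 2 for Bcl11a and 1 for each of the others. Where a gene had several, the brightest by its mean over the 8 arrays gave the gene value, and the others are shown beside it.

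RNA was hybridised to Affymetrix arrays from 3 groups of sorted mouse bone marrow cells, all given as C57/BL6 and 12 weeks old. The 2 Ezh2 KO CML LIC arrays held leukaemia-initiating cells (LICs) labelled as knockouts of Ezh2, the histone H3 lysine 27 methyltransferase of Polycomb repression. The 3 WT CML LIC arrays held such cells labelled wild type. Both kinds of LIC were GFP+Lin-Sca1+Kit+ cells from a retroviral mouse model of chronic myeloid leukaemia (CML), taken 14 days after bone marrow transplantation. The 3 WT HSC arrays held Lin-Sca1+Kit+ (LSK) marrow cells, a fraction rich in stem and multipotent progenitor cells, for which no transplantation or virus is given, and they are called LSK cells below. How Ezh2 was deleted, the promoter that drove any Cre, the retrovirus used and whether animals were pooled are not stated in the labels. The labels call the repeats biological without naming separate animals, so p-values measure the spread between these arrays. In sorted populations measured in bulk, fewer cells of a type and less RNA per cell cannot be told apart.

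B-cell development starts when E proteins, encoded by Tcf3 and its relatives, bind E-box sequences and help to switch on Ebf1. The early B-cell factor Ebf1 opens B-lineage chromatin, activates the genes of the pre-B cell receptor together with Tcf3, and induces Pax5. The paired-box factor Pax5 then holds the cell in the lineage by activating B-cell genes and repressing those of other lineages. Ikzf1 (Ikaros) and Bcl11a are zinc-finger proteins that act earlier, in multipotent and lymphoid progenitors, and are needed for B cells to form. Spib is an ETS factor related to the myeloid and B-cell factor PU.1, and it also serves plasmacytoid dendritic cells. Pou2af1 is a coactivator without a DNA-binding domain of its own. It docks on the octamer-binding factors Pou2f1 and Pou2f2 and is needed for germinal centre responses in mice.

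Values below are log2 intensities. Probe sets for bacterial genes that were not spiked into the samples gave a background level of 4.01 on that scale, the highest mean among 27 of them, and a value at or under it is treated as not measured above background. Ezh2 itself was at 8.94 and 9.55 in the Ezh2 KO LICs, against 11.33, 11.44 and 11.26 in WT LICs, and was lower by 2.10 in limma's fit (log2 difference -2.10, SE 0.21, adjusted p = 0.00985), a call lost when the LIC groups were fitted alone (adjusted p = 0.055). Signal thus remained well above background on both knockout arrays. The labels do not say which part of the gene was removed, so this probe set does not check the deletion. WT LIC replicate 3 stood apart from its group, with Xist at 4.35 against 10.68 and 11.06, with the lymphoid progenitor gene Dntt at 12.14 against 9.89 and 9.58, and with the erythroid factor Klf1 at 4.89 against 10.78 and 9.81. Erythroid markers summed to 324 to 477 in linear intensity in Ezh2 KO LICs, 109 to 2636 in WT LICs and 412 to 491 in LSK cells, and myeloid markers to 4586 to 7028, 6383 to 7537 and 6945 to 8217 in the same groups. Of 6 measured LSK markers, 5 were above background in every group (Mecom was not), with summed linear intensities of 6184 to 7572 in Ezh2 KO LICs, 4594 to 7047 in WT LICs and 10362 to 10987 in LSK cells.

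The first comparison set the leukaemia-initiating cells labelled Ezh2 KO against those labelled wild type. Of the 7 B-lineage regulators, Pou2af1 and Spib rose in Ezh2 KO LICs over WT LICs, and Ebf1 rose on 2 of its 3 probe sets. Pax5 lay at background on every array, Ikzf1 lay close to it, and Tcf3 and Bcl11a, both clearly expressed, did not pass the test. In all, 2 of the 7 gene values were called higher and 0 lower, where 0.637% of all 12393 genes were called in either direction, 0.589% higher and 0.0484% lower (limma, Benjamini-Hochberg adjusted p under 0.05 over all genes, n = 2 and 3). The median log2 difference of the 7 was 0.35, beside -0.05 for all genes. This median is the value of Ikzf1, close to background, so it says little about the set. Counted by their brightest probe set, 4 members had both Ezh2 KO arrays above all WT LIC arrays and 2 had both below, where 13.2% and 16.6% of all genes did so. The 4 were Ebf1, Pou2af1, Spib and Ikzf1, the last close to background. The 2 were Tcf3 and Pax5, the latter under background on every array.

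Pou2af1, the octamer coactivator, read 9.54 and 9.31 in Ezh2 KO LICs, 4.61, 3.03 and 3.04 in WT LICs, and 5.01, 6.54 and 6.05 in LSK cells. The 3 groups did not overlap: the gene was brightest in Ezh2 KO LICs, intermediate in LSK cells, and above background on 1 of the 3 WT LIC arrays. Ezh2 KO LICs averaged 9.42 ± 0.16 (SD, n = 2) and WT LICs 3.56 ± 0.91 (SD, n = 3), a rise of at least 37.1-fold (log2 difference 5.86, SE 0.58, limma adjusted p = 0.00985). Such a lower bound sets the bright group's mean log2 value against the dim group's mean with each of its arrays raised to the background level where it lay under it. Without Ezh2 KO LIC replicate 2 the log2 difference was 5.98 but the adjusted p of limma was 0.0551, with the lone knockout array assumed to vary like the other groups.

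Spib, the ETS factor, read 6.54 and 7.42 in Ezh2 KO LICs, against 3.27, 2.87 and 2.96 in WT LICs and 2.64, 3.49 and 2.89 in LSK cells. It was above background on both knockout arrays and under it on all 6 of the others. Ezh2 KO LICs averaged 6.98 ± 0.62 (SD, n = 2) and WT LICs 3.03 ± 0.21 (SD, n = 3), a rise of at least 7.82-fold (log2 difference 3.94, SE 0.33, limma adjusted p = 0.00753). The knockout replicates differed from each other more in Spib than in Pou2af1, with replicate 2 the brighter for Spib and replicate 1 for Pou2af1.

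Ebf1, the factor that commits progenitors to the B lineage, read 9.23 and 8.80 on its brightest probe set (1416301_a_at) in Ezh2 KO LICs, 7.06, 2.70 and 5.73 in WT LICs, and 2.84, 4.84 and 6.23 in LSK cells. Both knockout arrays were above all the others, but WT LICs and LSK cells were each spread from below background to well above it. The means were 9.02 ± 0.30 (SD, n = 2) in Ezh2 KO LICs and 5.16 ± 2.24 (SD, n = 3) in WT LICs, and the log2 difference of 3.85 did not pass (SE 1.34, limma adjusted p = 0.361). The other 2 probe sets, designed from the same transcript record, had much less spread in WT LICs, where they lay mostly under background. WT LIC replicate 1, at 7.06 on the brightest probe set, was under background on both (3.22 and 3.68). Probe set 1448293_at read 7.76 and 7.57 in Ezh2 KO LICs against 3.22, 3.19 and 4.57 in WT LICs and 3.67, 3.11 and 3.06 in LSK cells. Probe set 1416302_at read 6.85 and 6.49 in Ezh2 KO LICs against 3.68, 2.36 and 2.68 in WT LICs and 2.89, 2.73 and 3.25 in LSK cells. On both, the knockout arrays stood alone above background except for WT LIC replicate 3 on 1448293_at.

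Fitted over all 20380 probe sets with 1 gene symbol, of which 0.51% were called in this comparison, 0.476% higher, both dimmer Ebf1 probe sets passed. In Ezh2 KO over WT LICs, 1448293_at rose at least 11.1-fold (log2 difference 4.01, SE 0.43, limma adjusted p = 0.0123) and 1416302_at at least 6.32-fold (log2 difference 3.76, SE 0.38, limma adjusted p = 0.00954). With 1 knockout array left out, neither passed: adjusted p was 0.0676 and 0.0754 for 1448293_at without Ezh2 KO LIC replicates 1 and 2, and 0.0581 and 0.057 for 1416302_at. Without WT LIC replicate 1, 1448293_at had a limma adjusted p of 0.0531. The log2 differences hardly moved in these fits, between 3.58 and 4.10. With each gene taken as the mean of its probe sets, Ebf1 was called as well (log2 difference 3.87, limma adjusted p = 0.0293). Counting a member when any of its probe sets was called, 3 of the 7 were higher in Ezh2 KO LICs. The share of all genes called in that way was not computed, and such a count gives genes with several probe sets more chances.

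**Figure D1:**
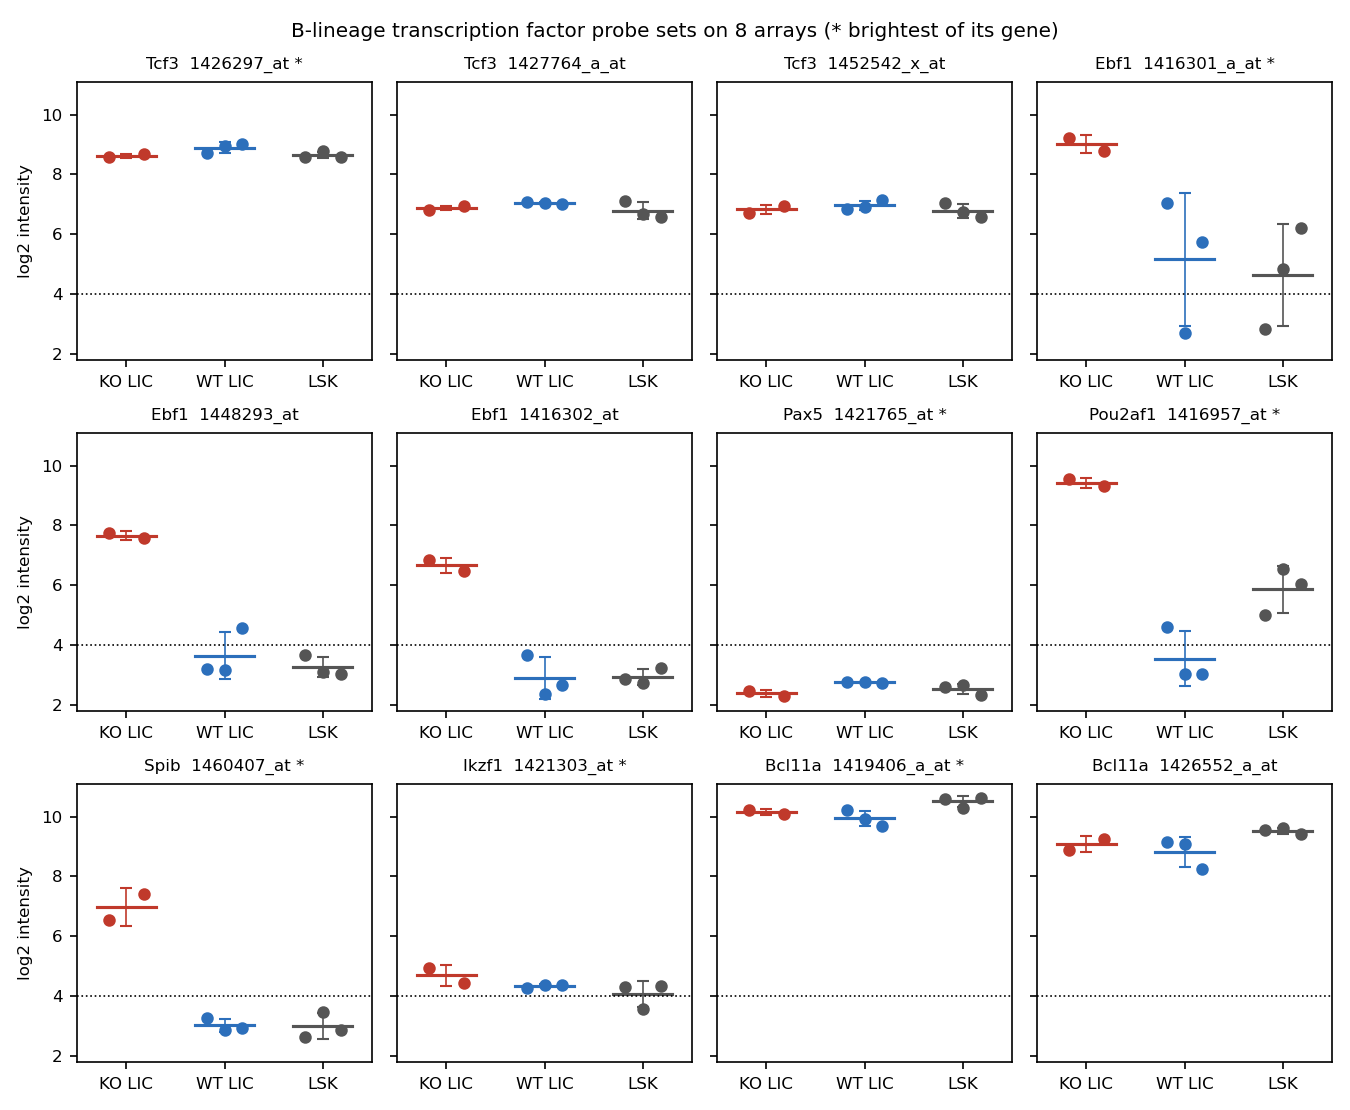
Log2 intensity (vertical axis) of each of the 12 probe sets on the 8 arrays, with Ezh2 KO LICs in red, WT LICs in blue and LSK cells in grey. Points are arrays, horizontal bars are group means, error bars are SD, the dotted line is the background level of 4.01 and an asterisk marks the brightest probe set of its gene; Pou2af1, Spib and all 3 Ebf1 probe sets have both knockout arrays above the other 6.

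The promoters of Pou2af1, Spib and Ebf1 are shown because at least 1 probe set of each was called higher in Ezh2 KO LICs, and each was searched on both strands for the binding letters of regulators in the set: the E-box CANNTG, the EBF half-sites CCCNNGGG, the octamer ATGCAAAT and the ETS core AGGAAG. The sequences are RefSeq windows of assembly GRCm38.p6, from 250 bases before to 50 after a start site, written 5′ to 3′ in the direction of transcription, with motif matches in capitals. Pou2af1 lies at chr9:51213440-51213739 on the plus strand, Spib at chr7:44532022-44532321 on the minus strand, and the downstream of the 2 Ebf1 windows at chr11:44619978-44620277 on the plus strand.
Pou2af1: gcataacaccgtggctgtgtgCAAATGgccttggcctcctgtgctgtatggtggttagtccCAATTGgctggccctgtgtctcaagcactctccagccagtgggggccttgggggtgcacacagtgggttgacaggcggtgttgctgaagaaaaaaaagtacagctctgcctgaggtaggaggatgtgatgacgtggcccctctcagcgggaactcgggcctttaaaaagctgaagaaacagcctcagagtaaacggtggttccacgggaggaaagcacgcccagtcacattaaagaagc
Spib: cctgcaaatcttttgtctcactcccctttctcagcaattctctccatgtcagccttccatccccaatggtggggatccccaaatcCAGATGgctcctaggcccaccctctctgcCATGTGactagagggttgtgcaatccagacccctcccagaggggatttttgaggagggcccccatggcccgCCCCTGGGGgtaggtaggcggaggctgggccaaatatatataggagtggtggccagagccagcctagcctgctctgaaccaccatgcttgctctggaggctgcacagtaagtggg
Ebf1: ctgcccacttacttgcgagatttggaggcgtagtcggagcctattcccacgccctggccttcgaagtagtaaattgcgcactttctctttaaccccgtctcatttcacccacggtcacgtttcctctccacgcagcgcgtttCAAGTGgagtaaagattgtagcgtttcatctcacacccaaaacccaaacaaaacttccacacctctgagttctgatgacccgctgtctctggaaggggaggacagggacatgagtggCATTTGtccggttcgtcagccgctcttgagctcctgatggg
The Pou2af1 window held 2 E-boxes, CAAATG starting 229 and CAATTG starting 189 bases before the start site. The Spib window held 2 E-boxes, CAGATG and CATGTG, and 2 EBF matches, CCCCTGGG and CCCTGGGG, that share 7 bases and appear as 1 run of capitals. The Ebf1 window held the E-boxes CAAGTG, before the start site, and CATTTG, after it, while the other Ebf1 window, at chr11:44617850-44618149, held none of the 4 motifs. Among 32851 RefSeq windows of this length, 72.3% held an E-box, 13.7% an EBF match, 1.74% the octamer and 35.4% the ETS core. An E-box is therefore common in any such window, and the octamer was in no window of the 7 members. A match describes letters only, and binding was not measured.

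None of the other 4 regulators passed the test between Ezh2 KO and WT LICs. Tcf3, the E protein gene, read 8.57 and 8.67 in Ezh2 KO LICs against 8.71, 8.96 and 9.03 in WT LICs and 8.58, 8.77 and 8.58 in LSK cells. The knockout arrays lay just under all WT LIC arrays and close to the LSK arrays, with a log2 difference of -0.28 from WT LICs (SE 0.16, limma adjusted p = 0.556). Its other probe sets gave -0.17 (1427764_a_at) and -0.14 (1452542_x_at), neither called.

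Bcl11a, the zinc-finger factor of lymphoid progenitors, read 10.22 and 10.07 in Ezh2 KO LICs, 10.21, 9.92 and 9.69 in WT LICs, and 10.60, 10.30 and 10.61 in LSK cells. Ezh2 KO and WT LICs overlapped, and the log2 difference between them was 0.20 (SE 0.20, limma adjusted p = 0.735). The second Bcl11a probe set, 1426552_a_at, read 8.90 and 9.26 in Ezh2 KO LICs, 9.15, 9.09 and 8.25 in WT LICs, and 9.55, 9.61 and 9.42 in LSK cells. It had the same order of groups, with LSK cells highest.

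Ikzf1 read 4.94 and 4.46 in Ezh2 KO LICs, 4.29, 4.39 and 4.38 in WT LICs, and 4.30, 3.59 and 4.34 in LSK cells. These values are close to the background level on all arrays, so this single probe set says little about Ikaros in any group, and the log2 difference of 0.35 from WT LICs did not pass (SE 0.26, limma adjusted p = 0.66). Pax5 read 2.48 and 2.32 in Ezh2 KO LICs, 2.78, 2.78 and 2.74 in WT LICs, and 2.60, 2.66 and 2.34 in LSK cells. All 8 arrays were under background and no fold is given (limma adjusted p = 0.443 between Ezh2 KO and WT LICs). Its only probe set thus gave no measured Pax5 signal on the arrays where Ebf1, its inducer, was bright.

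**Figure D2:**
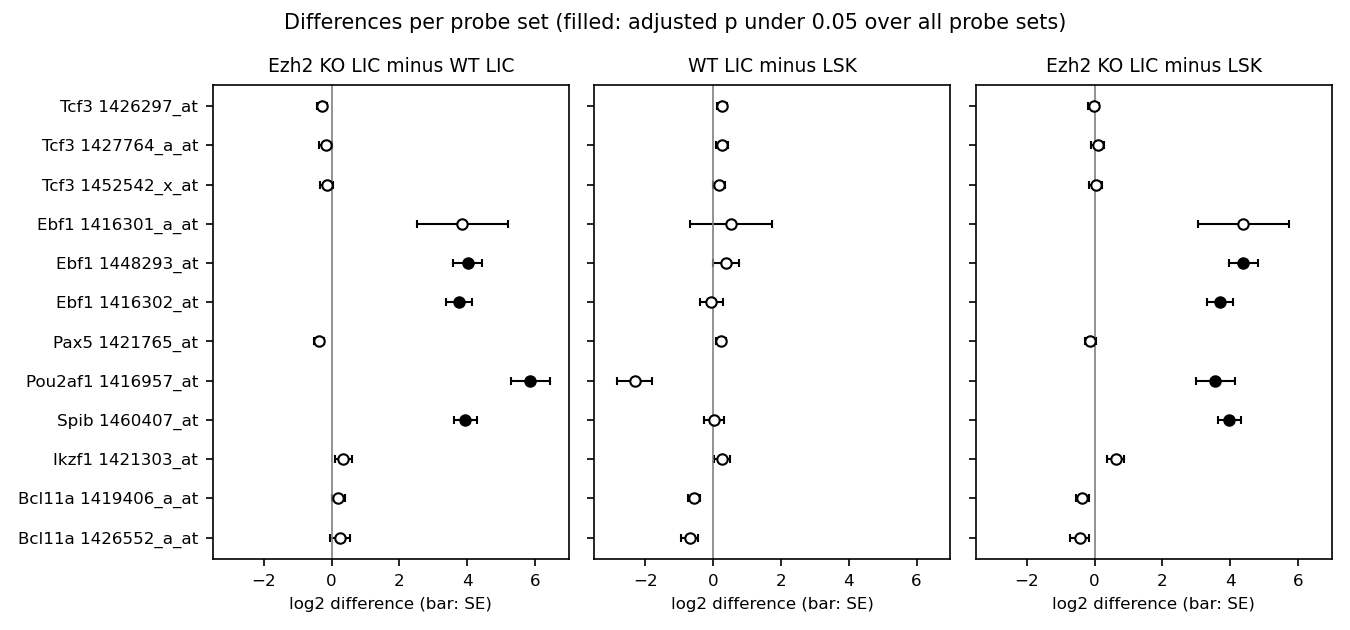
Log2 differences (horizontal axis) of the 12 probe sets between Ezh2 KO and WT LICs, WT LICs and LSK cells, and Ezh2 KO LICs and LSK cells, in 3 panels. Points are fitted differences, bars are SE and filled points passed limma's test over all 20380 probe sets; only Pou2af1, Spib and the 2 dimmer Ebf1 probe sets have filled points, in the first and last panels.

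The E protein relatives and the Id proteins, which bind E proteins and keep them off DNA, were measured through 6 genes. Of these, 1 rose in Ezh2 KO over WT LICs, 0 fell and 5 did not pass, with a median log2 difference of 0.23 beside -0.05 for all genes. The gene that rose was the inhibitor Id3, at 5.07 and 4.56 in Ezh2 KO LICs against 3.03, 3.46 and 3.31 in WT LICs, at least 1.75-fold (log2 difference 1.55, SE 0.20, limma adjusted p = 0.0261). It stayed near background, and its call was lost under 8 of 18 alternative settings, with an adjusted p of up to 0.123. The inhibitor Id1 was at 9.02 and 8.96 in Ezh2 KO LICs against 7.96, 8.53 and 8.09 in WT LICs, without overlap, but its log2 difference of 0.80 did not pass (SE 0.25, limma adjusted p = 0.293).

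Relatives and binding partners of the regulators were measured through 8 of 11 listed genes, the others (Ikzf3, Ikzf5 and Pou2f1) not being analysed here, and none of the 8 was called (2 had an unadjusted limma p under 0.05). Their median log2 difference was 0.19. Irf4, a partner of PU.1 and Spib, was at 8.19 and 5.81 in Ezh2 KO LICs against 4.40, 3.07 and 4.96 in WT LICs (log2 difference 2.85, SE 0.95, limma adjusted p = 0.332). The Spib relative Spic was at 5.50 and 8.23 against 5.13, 2.50 and 4.24 (at least 5.30-fold higher, limma adjusted p = 0.345). Knockout arrays were above all WT LIC arrays for both genes, and the 2 knockout arrays were themselves far apart. With 1 array left out, the log2 difference ranged from 1.67 to 4.04 for Irf4 and from 1.54 to 4.27 for Spic, the extremes coming without 1 or the other knockout array.

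Among 14 other regulators of early B-lineage cells, 0 were called by limma, although 13 had a positive difference and 3 an unadjusted p under 0.05. Their median was 0.42, beside -0.05 for all genes. Against LSK cells, 6 of the 14 were higher in Ezh2 KO LICs and 8 lower, with a median of -0.05 beside -0.02. Il7r, the receptor for the cytokine that mouse B-cell precursors need, was at 7.45 and 6.58 in Ezh2 KO LICs against 5.56, 2.18 and 3.80 in WT LICs (at least 5.62-fold higher, limma adjusted p = 0.28). Bach2, a repressor that favours lymphoid over myeloid fate, was at 8.34 and 9.04 against 6.20, 6.77 and 8.03 (log2 difference 1.69, SE 0.50, limma adjusted p = 0.274), and WT LIC replicate 3 was the closest to the knockout arrays. Without that array Bach2 was called (log2 difference 2.20, limma adjusted p = 0.0286).

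The genes that these regulators activate in B-lineage cells gave the largest count of the gene lists. Of 18 measured, 5 rose in Ezh2 KO over WT LICs, 0 fell and 13 did not pass, with a median log2 difference of 0.55 beside -0.05 for all genes. Targets that Ebf1 and Tcf3 share in pro-B and pre-B cells are among those that rose. Vpreb3, a chaperone of immunoglobulin chains, read 9.07 and 8.09 in Ezh2 KO LICs against 4.52, 3.89 and 4.46 in WT LICs (log2 difference 4.29, SE 0.35, limma adjusted p = 0.00753). Cd79a, the signalling chain of the B-cell receptor, read 8.95 and 8.03 against 5.08, 4.37 and 4.94 (log2 difference 3.69, SE 0.34, limma adjusted p = 0.00753). Neither gene overlapped between the LIC groups, and knockout replicate 1 was the brighter for both.

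Igll1, one of the 2 surrogate light chain proteins, read 11.36 and 10.31 in Ezh2 KO LICs against 6.09, 5.21 and 5.52 in WT LICs, and 1 of its 2 probe sets was called (log2 difference 5.23, limma adjusted p = 0.00753, or 3.52 as the mean of both). Rag1, which cuts antigen receptor genes for recombination, read 9.31 and 9.18 against 3.82, 4.11 and 4.02, at least 36.8-fold higher (limma adjusted p = 0.00985). Its call was lost without Ezh2 KO LIC replicate 2 (adjusted p = 0.0581) and without WT LIC replicate 1 (adjusted p = 0.0509). The fifth gene, Blnk, an adaptor of pre-B cell receptor signalling, falls outside the naming rule and was chosen after its values were seen. It read 7.68 and 7.25 in Ezh2 KO LICs against 3.81, 2.39 and 4.18 in WT LICs, at least 10.6-fold higher (limma adjusted p = 0.0351). Vpreb1, the other surrogate light chain protein and also chosen so, read 10.90 and 10.40 against 7.46, 5.68 and 7.26 and missed the threshold (log2 difference 3.85, SE 0.71, limma adjusted p = 0.0852).

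Genes of later B cells on the same list, such as Ms4a1, Cd22, Fcer2a and Cr2, were not called. Of 3 measured genes that Pax5 represses, 0 were called, with 1 at an unadjusted limma p under 0.05. Notch1, the T-lineage receptor among them, had a log2 difference of 0.97 (SE 0.37, limma adjusted p = 0.402), and for the T-cell costimulator Cd28, whose means were under background in both LIC groups, no fold is given (limma adjusted p = 0.689).

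**Figure D3:**
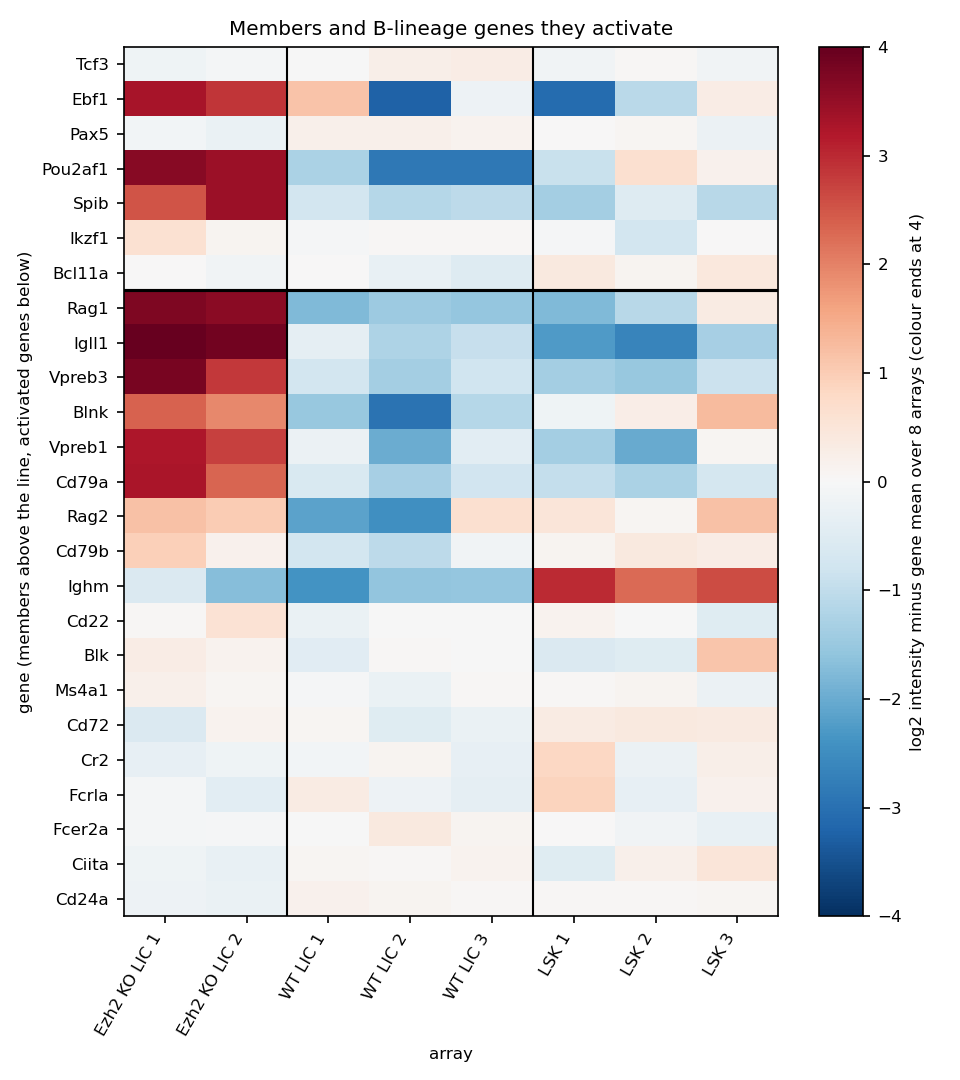
Log2 intensity minus the gene's mean over the 8 arrays, as colour from blue (low) to red (high, colour ends at 4), for the 7 regulators above the line and 18 genes they activate below it, with 1 column per array. Ebf1, Pou2af1, Spib, Rag1, Igll1, Vpreb3, Blnk, Vpreb1 and Cd79a are red on both knockout arrays, while Ighm is red on the LSK arrays.

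Markers of B-cell precursors moved with these results. Of 6 measured pro-B and pre-B markers, all of which are also on the list of activated genes, 4 were called higher in Ezh2 KO LICs over WT LICs and 6 of 6 were above background in Ezh2 KO LICs. Their summed linear intensity was 4321 to 7071 in Ezh2 KO LICs, 441 to 839 in WT LICs, where Rag1 and Blnk had means under background, and 855 to 1219 in LSK cells. Their part in the differences of Pou2af1, Spib and Ebf1 was not tested. Mature B-cell markers summed to 1698 to 1749 in Ezh2 KO LICs, 1292 to 1748 in WT LICs and 1635 to 1764 in LSK cells, nearly all of it from Cd37, which was at 10.29 to 10.75 on every array, with Ms4a1, Cd22 and Fcer2a under background in all groups and 0 of 5 called (limma). Plasmacytoid dendritic cell markers, relevant to Spib, summed to 3102 to 3815 in Ezh2 KO LICs, 3086 to 3210 in WT LICs and 3726 to 4656 in LSK cells. Most of that sum came from Tcf4 and Bst2, and Siglech was not analysed here. In the knockout comparison 0 of 4 were called, with 2 positive and 2 negative differences. The dimmer Ccr9 was at 6.18 and 6.32 in Ezh2 KO LICs against 2.97, 4.54 and 5.01 in WT LICs (log2 difference 2.08, SE 1.14, limma adjusted p = 0.543). The part of these markers in the Spib difference was not tested. T-cell markers summed to 81.0 to 86.4 in Ezh2 KO LICs, 78.3 to 90.9 in WT LICs and 81.0 to 84.2 in LSK cells, and Cd3g, Cd8a and Bcl11b were under background in each group.

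**Figure D4:**
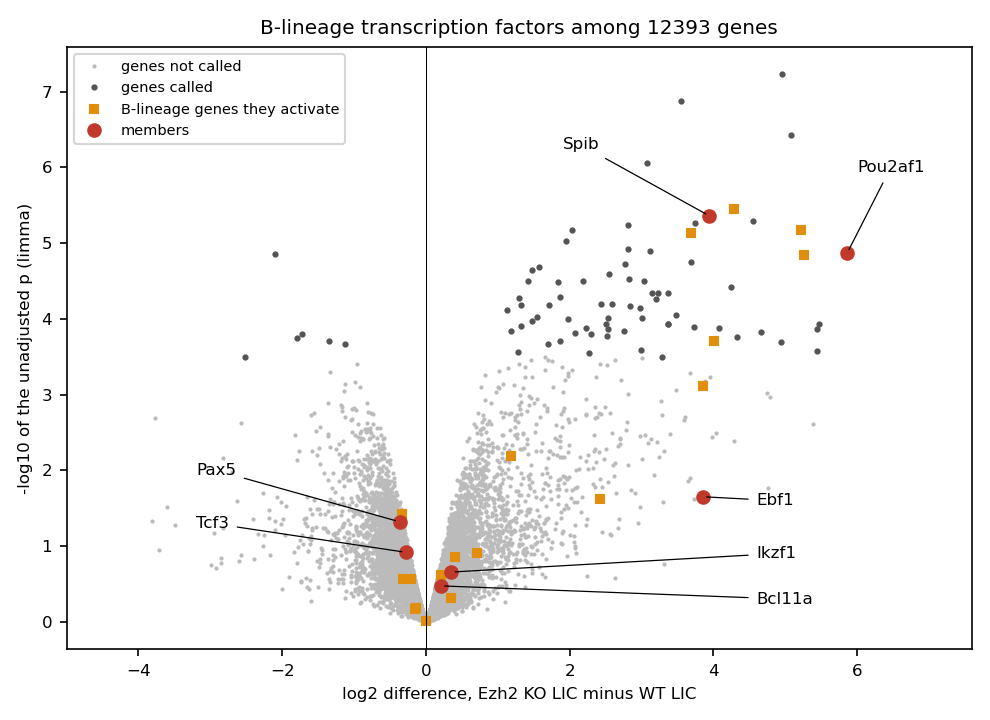
Log2 difference between Ezh2 KO and WT LICs (horizontal axis) against -log10 of limma's unadjusted p (vertical axis) for the 12393 genes. Grey points are genes not called, dark points genes called, orange squares the activated genes and red circles the 7 regulators; Pou2af1 and Spib lie among the called genes at the upper right, Ebf1's brightest probe set at a log2 difference of 3.85 lies lower, and the other 4 lie near 0.

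The second comparison set WT LICs against normal LSK cells, and it holds leukaemia, retroviral infection and transplantation together. It shares the WT LIC arrays with the first, so its values are not independent of that comparison. A low WT LIC value counts towards a rise there and a fall here. None of the 7 regulators was called (0 of 7 higher or lower), where 3.42% of all genes were, 1.27% higher and 2.15% lower. The limma p was under 0.05 before adjustment for 2 of them, Pou2af1 and Bcl11a, and both were lower in WT LICs. The median log2 difference was 0.23, beside 0.02 for all genes, and it is the value of Pax5, which was under background on every array. By array values, 1 member, Pax5, was higher without overlap but under background, where 13.5% of genes were higher, and 2 were lower, where 13.2% were.

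Pou2af1 averaged 3.56 ± 0.91 in WT LICs and 5.87 ± 0.78 in LSK cells (SD, n = 3 each), and all 3 LSK arrays were above all 3 WT LIC arrays. The log2 difference of -2.31 missed the threshold (SE 0.52, limma adjusted p = 0.0599; at least 3.16-fold lower against the background level), and it passed without WT LIC replicate 1, with a difference of -2.83 (limma adjusted p = 0.0418). Bcl11a averaged 9.94 ± 0.26 in WT LICs and 10.50 ± 0.17 in LSK cells (SD, n = 3 each), again without overlap, and its log2 difference of -0.56 did not pass (SE 0.18, limma adjusted p = 0.133). Ebf1 on its brightest probe set differed by 0.53 (SE 1.20, limma adjusted p = 0.858), and its dimmer sets by 0.38 and -0.05, neither called, where 2.68% of probe sets were, 0.986% as higher. Spib was under background in both groups, Tcf3 differed by 0.26 (SE 0.14, limma adjusted p = 0.362), and Ikzf1 by 0.27 (SE 0.23, limma adjusted p = 0.563).

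Around the regulators, the one E protein or Id gene called was Id1, at 7.96, 8.53 and 8.09 in WT LICs against 5.37, 5.08 and 4.70 in LSK cells (log2 difference 3.14, SE 0.22, limma adjusted p = 0.000957). Id2 was also higher without overlap but missed the threshold (log2 difference 1.52, SE 0.33, limma adjusted p = 0.0557), with 1 of its 3 probe sets called. Of the 8 partners and of the 14 other early regulators, 0 were called by limma on their brightest probe set. Limma's unadjusted p was under 0.05 for 3 and 6 of them, and the medians were -0.94 and -0.62, beside 0.02 for all genes. Taken singly, 3 of 6 Sox4 probe sets and 1 of 7 Foxp1 probe sets were called lower, where 2.68% of all probe sets were called. The Ikaros relative Ikzf2 was under background on all 3 WT LIC arrays and at least 2.38-fold lower than in LSK cells, a difference that did not pass (limma adjusted p = 0.0507). Irf8, a partner of PU.1, had a log2 difference of -1.53 (SE 0.49, limma adjusted p = 0.137). Il7r was at 5.56, 2.18 and 3.80 in WT LICs against 7.32, 7.07 and 8.84 in LSK cells, without overlap (at least 9.28-fold lower, limma adjusted p = 0.0557). The ETS factor Erg was at 7.41, 7.42 and 7.34 in WT LICs against 8.81, 8.01 and 8.36 in LSK cells, also without overlap (SE of the log2 difference 0.21, limma adjusted p = 0.0502). Some alternative settings called these genes: 7 of 18 for Ikzf2, 5 of 19 each for Il7r and Erg, and 2 of 19 for Irf8, with a lowest adjusted p of 0.0229, 0.0259, 0.0222 and 0.0254 in that order.

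Of the 18 activated genes, 0 rose, 1 fell and 17 did not pass in WT LICs, with a median of -0.10. The gene that fell was Ighm, the heavy chain of IgM, at 6.96, 7.77 and 7.80 in WT LICs against 12.33, 11.63 and 11.98 in LSK cells (log2 difference -4.47, SE 0.36, limma adjusted p = 0.00173). It has 11 probe sets, of which 2 were called, and their mean gave a log2 difference of -0.70 (limma adjusted p = 0.0552). The summed intensity of antibody-secreting cell markers was lower too, at 1195 to 1466 in WT LICs and 3390 to 4671 in LSK cells, with 1 of 4 called lower. That gene was Jchain (log2 difference -5.77, limma adjusted p = 0.000281), and Sdc1 was lower without passing (-3.21, limma adjusted p = 0.0507). Prdm1 differed by -0.13 and Xbp1 by 0.43. The part of these markers in the Ighm difference was not tested. Of the 3 genes that Pax5 represses, 0 were called by limma and 2 had an unadjusted p under 0.05, Csf1r (log2 difference -2.69, SE 0.74, adjusted p = 0.0965) and Notch1 (-1.36, SE 0.33, adjusted p = 0.0722). Both were called without WT LIC replicate 3 (adjusted p = 0.0189 and 0.0168).

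Ezh2 KO LICs were also set against LSK cells. This comparison shares the knockout arrays with the first and the LSK arrays with the second, so its values stand beside theirs and are not independent of them. Again Pou2af1 and Spib rose, 2 of 7 higher and 0 lower, where 3.47% of all genes were called, 1.61% higher and 1.86% lower. The median log2 difference of the 7 was 0.62, beside -0.02 for all genes, and it is again the value of Ikzf1, close to background. By array values, 4 members (Ikzf1 among them) were higher and 1, Bcl11a, was lower without overlap, where 18.2% and 20.5% of genes were.

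Pou2af1 averaged 9.42 ± 0.16 in Ezh2 KO LICs (SD, n = 2) and 5.87 ± 0.78 in LSK cells (SD, n = 3), 11.8-fold higher (log2 difference 3.56, SE 0.58, limma adjusted p = 0.0253). This call was lost when 1 array was left out: limma's adjusted p was 0.121 and 0.113 without Ezh2 KO LIC replicates 1 and 2, and 0.0547 and 0.0614 without LSK replicates 1 and 3. Spib averaged 6.98 ± 0.62 in Ezh2 KO LICs (SD, n = 2) and 3.01 ± 0.44 in LSK cells (SD, n = 3), at least 7.82-fold higher (log2 difference 3.97, SE 0.33, limma adjusted p = 0.00246). Ebf1 did not pass on its brightest probe set (log2 difference 4.38, SE 1.34, limma adjusted p = 0.129), and passed as the mean of its probe sets (4.16, limma adjusted p = 0.0127). It passed on 1448293_at, at least 12.6-fold higher (limma adjusted p = 0.00495), and on 1416302_at, at least 6.32-fold higher (limma adjusted p = 0.00634), where 2.86% of probe sets were called, 1.39% higher. Both of these calls held under the 9 alternatives run for them, each array left out and the replicate block, with an adjusted p of up to 0.0398 and 0.0448.

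Tcf3 differed by -0.02 (SE 0.16, limma adjusted p = 0.966), or 0.07 with median centring, Bcl11a by -0.36 (SE 0.20, limma adjusted p = 0.379) and Ikzf1 by 0.62 (SE 0.26, limma adjusted p = 0.251), and Pax5 was under background in both groups. Id1 and Id3 were the E protein antagonists called higher, Id1 by 3.94 (SE 0.25, limma adjusted p = 0.000616) and Id3 at least 1.75-fold (limma adjusted p = 0.0133). Id2 was also higher without overlap but missed the threshold (log2 difference 1.69, SE 0.37, limma adjusted p = 0.0562), with 1 of its 3 probe sets called. The Id3 call was lost without Ezh2 KO LIC replicate 1 (adjusted p = 0.0633). Of the activated genes 5 rose and 1 fell, with a median of 0.24. The 5 were not the same as over WT LICs. Rag1 (log2 difference 4.52, SE 0.53, limma adjusted p = 0.00887) and Vpreb1 (4.07, SE 0.71, limma adjusted p = 0.0286) were called. Blnk was not (1.67, SE 0.59, limma adjusted p = 0.176), with LSK arrays at 5.16, 5.61 and 6.61. Igll1 rose by 6.46 (SE 0.47, limma adjusted p = 0.00143), or by 3.47 as the mean of its probe sets, and Cd79a by 3.76 (SE 0.34, limma adjusted p = 0.00316). Vpreb3 rose by 4.56 (SE 0.35, limma adjusted p = 0.00168) over LSK arrays at 3.90, 3.74 and 4.40, of which 1 was above background. Ighm fell by 3.77 (log2 difference -3.77, SE 0.41, limma adjusted p = 0.00711) on its brightest probe set, with 1 of 11 called, and the mean of its probe sets did not pass (-0.54, limma adjusted p = 0.147). The antibody-secreting cell marker Jchain was lower too, at 3.76 and 4.70 in Ezh2 KO LICs against 11.19, 10.40 and 11.09 in LSK cells (limma adjusted p = 0.000287), and its part in the Ighm difference was not tested. No partner or other early regulator was called on its brightest probe set (0 of 8 and 0 of 14 by limma). Their medians were -0.17 and -0.05, beside -0.02 for all genes. Limma's unadjusted p was under 0.05 for 1 and 2 of them. Taken singly, 2 of 7 Foxp1 probe sets were called lower, where 2.86% of all probe sets were called. Flt3, a receptor of lymphoid-primed progenitors, differed by -1.54 (SE 0.51, limma adjusted p = 0.149) and Erg by -0.59 (SE 0.23, limma adjusted p = 0.223). Ikzf2, with 1 of 2 knockout arrays above background, was at least 2.22-fold lower without passing (limma adjusted p = 0.0835), and Pou2f2, the octamer factor that Pou2af1 binds, differed by -0.37 (SE 0.17, limma adjusted p = 0.307). Of the 3 genes that Pax5 represses, 0 were called by limma and 1 had an unadjusted p under 0.05, with Csf1r at -2.35 (SE 0.83, adjusted p = 0.175) and Notch1 at -0.39 (SE 0.37, adjusted p = 0.633).

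The 3 members whose values spanned more than 2 on the log2 scale were set beside all other genes by the mean absolute difference between profiles over the 8 arrays, each centred on its own mean. Ebf1 was most like Cadm1 (0.71), the pre-B gene Vpreb1 (0.74) and Cplx2 (0.79). Pou2af1 was most like Neo1 (0.76), Hoxc4 (0.78) and Rag1 (0.78). Spib was most like Atf3 (0.30), Alpl (0.33) and Enpep (0.36). The 8 arrays are shared by all these profiles. Spib was under background on every WT LIC and LSK array, and Ebf1 and Pou2af1 on some of them. The members were not each other's nearest genes: Spib was at rank 17 in likeness to Pou2af1 and at rank 25 to Ebf1, and Pou2af1 was at rank 45 to Ebf1. In the other direction, Pou2af1 was at rank 161 and Ebf1 at rank 564 in likeness to Spib, and Ebf1 was at rank 72 to Pou2af1.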

How the data were processed

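Per the labels' protocols, marrow cells were sorted into lysis buffer, each sample being sorted again for purity, and total RNA was amplified isothermally (SPIA) and labelled with biotin. RMA, without a version, is named in the submitters' processing notes. The deposited values are on a linear intensity scale (1.94 to 19343.1) with further steps and a genome build not given in the sources used here. The design had assumed log2 values, so log2 of each intensity was taken (no pseudocount) and the test kept.

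Of 22690 probe sets, 64 controls, 691 with several symbols and 1555 without a listed gene were left out, leaving 20380 with 1 symbol, of which 20351 matched RefSeq names (GRCm38.p6). Array medians lay between 6.42 and 6.58 (log2), and precision is limited by how few arrays there are. The 3 groups were fitted together with limma 3.58.1 (R 4.3.3; lmFit, eBayes; 5 residual degrees of freedom; 2-sided; Benjamini-Hochberg over 12393 genes, threshold 0.05), a script checked on simulated arrays. Plots used matplotlib 3.10.9.

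The members and gene lists were chosen with earlier results of these data known. By rule, the text names all members with every probe set, Ezh2, up to 4 called genes of a list by smallest p or, with none called, the 2 with the smallest p, and the 3 genes most like a member spanning over 2. Blnk, Vpreb1, Rag1 against LSK cells, Id1 in the knockout comparison, Id2, Sox4, Foxp1, Xist, Dntt, Klf1, Cd37 and Jchain were named after their values were seen. So were Tcf4, Bst2, Ccr9, Sdc1, Prdm1 and Xbp1. Results were recomputed with array weights, a trended robust prior, cyclic loess, quantile normalization, median centring, a pseudocount of 16, without dim genes, on the compared groups alone, with the replicate number as a block, without each array in turn, and from all probe sets of a gene averaged or taken singly. The dimmer Ebf1 probe sets and the count by any probe set were added after seeing the data. No scan date or batch is given, so batch and group cannot be told apart. No exact permutation test was used, since these group sizes cannot reach the threshold.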

Additional observations from a re-analysis of the deposited data

How the results depend on the processing

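Spib was called in both comparisons with Ezh2 KO LICs under all 18 alternatives it could be fitted in (limma adjusted p 0.00231 to 0.0335 against WT LICs and 0.000734 to 0.0157 against LSK cells). It was left out by the filter at the 40th percentile of brightness, which brought the members called in each of those comparisons to 1. Deviations from group means correlated at -0.05 to 0.14 over genes for same-numbered arrays and at -0.14 to 0.10 for differently numbered ones. With so few arrays this cannot show whether the replicate numbers pair them. The replicate block left 1 member called in each, with limma adjusted p of 0.058 and 0.0911 for Pou2af1, called Irf4 in the first (0.0346), and gave 36, 252 and 147 genes called in Ezh2 KO over WT LICs, WT LICs over LSK cells and Ezh2 KO LICs over LSK cells. Genes called, 79, 424 and 430 in that order, became 32 in the first with the filter, 119 and 917 in the first and second with array weights, and 35 in the first on the compared groups alone. With 1 array left out they ranged from 25 (without WT LIC replicate 1) to 146 (without WT LIC replicate 3), from 176 to 643, and from 118 to 643. Members called then ranged from 1 to 2, from 0 to 1 and from 1 to 2. In WT LICs over LSK cells 1 member, Pou2af1, was called with the filter, the trended prior and array weights. Median centring moved the median of all genes in that comparison to 0.13 and raised the higher calls to 54.2% of all calls, where they had been 37.0%, and to 59.8% in Ezh2 KO LICs over LSK cells, where they had been 46.5%.

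Differences that changed sign had not been called. In WT LICs over LSK cells these were Ebf1, at -0.59 with array weights, -0.05 on 1416302_at and -0.42 to 1.76 with an array left out, Spib at -0.16 to 0.27, and the dimmer Ebf1 probe sets at -0.07 to 0.61 (1448293_at) and -0.43 to 0.22 (1416302_at). In Ezh2 KO LICs over LSK cells Tcf3 was 0.07 with median centring, 0.01 with cyclic loess, 0.03 as the mean of probe sets and up to 0.04 with an array left out. Cd28, with means under background in Ezh2 KO and WT LICs, was -0.33 to 2.15 with an array left out, lowest without Ezh2 KO LIC replicate 1. The causes were not tested. The probe sets of Pax5 and Ikzf1 gave signal at or near background, which limits what can be said of either.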
